A study of Mus musculus with 9 samples.

Results

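The 33 genes described here are cell cycle and DNA replication genes, chosen by name, and all 33 are among the 23499 genes of the deposited blood table. By role, 11 of them serve DNA replication: Mcm2, Mcm3, Mcm4, Mcm5, Mcm6 and Mcm7, which form the replicative helicase, Pcna, the sliding clamp of the DNA polymerases, and Tyms, Rrm1, Rrm2 and Tk1, which supply DNA precursors. The other 22, called mitotic members below, act mainly in G2 and M phase. They are the kinase Cdk1 with its cyclins Ccna2, Ccnb1 and Ccnb2, the mitotic and checkpoint kinases Aurka, Aurkb, Plk1, Bub1 and Bub1b, and Cdc20 and Ube2c, which work with the anaphase-promoting complex. The last 11 are the chromosome, spindle and kinetochore genes Cenpa, Cenpe, Cenpf, Kif11, Tpx2, Birc5, Cdca8, Top2a, Mki67, Hmgb2 and Stmn1.

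Transcripts of replication genes rise as a cell leaves G1 for S phase, largely through E2F factors, and those of mitotic genes peak in G2 and M phase. Most mature blood leukocytes are outside the cycle, whereas myeloid and erythroid precursors and activated lymphocytes divide. In sums over many cells, fewer dividing cells and less of these RNAs per cell cannot be told apart.

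Blood of female 129SvE mice was profiled with Seq-Well, a single-cell RNA-seq method in which cells are caught in small wells with barcoded beads. The groups were 4 healthy mice, numbered 1 to 4 and at disease stage 0, and 5 mice labelled as sick with rheumatoid arthritis, numbered 1, 3, 4, 5 and 6. The disease stage was 1.5 in arthritic mouse 1, 2 in mouse 3, 1.5 in mouse 4, 1.5 to 2 in mouse 5 and 2 to 2.5 in mouse 6. The way arthritis was brought about is not given in the sources used here. A joint table, made from data published earlier, has headers that name healthy mice in 2190 columns and sick mice in 6233, but none of the labelled samples is a joint sample, so it was pooled and taken as 1 sample.

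Levels are given in SPM, the deposited signal of a gene per 1000000 of its library's total. In fitted comparisons the totals were first adjusted by trimmed-mean factors, and the level is then called scaled SPM. Reads came from next to the polyA tail, so levels are compared for a gene between libraries and not between genes. Ccnb1, Ccnb2, Stmn1, Tyms and Pcna have processed pseudogenes, so their read assignment is uncertain.

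The blood table had 4310 columns, 302 from healthy and 4008 from arthritic mice, with totals of 6052 to 51601 per column. A mouse's total was 330950 to 2053973 in the healthy and 8350920 to 13557201 in the arthritic group, so the healthy values are the less precise ones. The columns were not all separate cells: 1313 were identical to another blood column, 734 to one of another mouse and 704 to a joint column. Hemoglobin took 1.68% to 55.0% of the signal in healthy and 0.63% to 50.0% in arthritic mice. The class names are those of the column headers. All 6 T cell markers checked were highest in the CD4 T class, all 6 secondary granule markers in granulocytes, 5 of 6 B cell markers in B cells, 5 of 6 monocyte and dendritic markers in myeloid dendritic cells and 4 of 5 neutrophil precursor markers in myeloid progenitors. Pooled over mice, the foxP3 T class had 727.5 SPM of T cell markers against 1622 in the CD4 T class. It also had 367100 SPM of erythroid markers, which goes against its name. In the class fits over arthritic mice given below, all 6 T cell markers were called higher in it (median log2 difference 1.82). Of the 13 erythroid markers 1 was (median 1.32), against 2.69% of all genes. High T cell markers did not set this class apart from B cells, which had 716.7 SPM of them pooled over mice. In B cells all 6 were called higher as well (median 1.35), where 977 of 12055 genes were. Erythroid markers were high elsewhere too, at 230000 SPM in granulocytes and 107800 in progenitors, where 8 of the 13 were highest. Granulocytes made up 44.2% of columns, although the labels name PBMC as well as blood.

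By mean over arthritic mice, myeloid progenitors had the highest level of cell cycle transcripts among the 6 larger blood classes, and CD4 T and myeloid dendritic cells the lowest. Summed over the 33 genes, progenitors had 8030 SPM in arthritic mouse 1, 7712 in mouse 3, 11270 in mouse 4 and 12160 in mouse 5, a mean of 9793 ± 2250 (SD, n = 4). Mouse 6 had 1 progenitor column and was left out. Granulocytes had 3972, 3979, 3429, 3815 and 2277 SPM in arthritic mice 1, 3, 4, 5 and 6, a mean of 3494 ± 716 (SD, n = 5). The lowest progenitor value was above the highest granulocyte value. The foxP3 T class had a mean of 4131 ± 4030 (SD, n = 5), between both. B cells followed with 1849 ± 1060 SPM (SD, n = 5), then CD4 T cells with 1183 ± 465 (SD, n = 5) and myeloid dendritic cells with 992 ± 447 (SD, n = 4). The ranges of these last 3 classes overlapped.

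The foxP3 T class did not have 1 level. It reached 8464 SPM in arthritic mouse 1 and 8622 in mouse 3, but 1116, 1404 and 1048 in mice 4, 5 and 6. It was thus above the progenitors of mice 1 and 3, and progenitors were the higher class in mice 4 and 5. Hemoglobin took 0.174% and 0.658% of the class's signal in mice 1 and 3, and 45.4%, 61.9% and 18.5% in mice 4, 5 and 6. Its part in the difference was not tested.

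**Figure D1:**
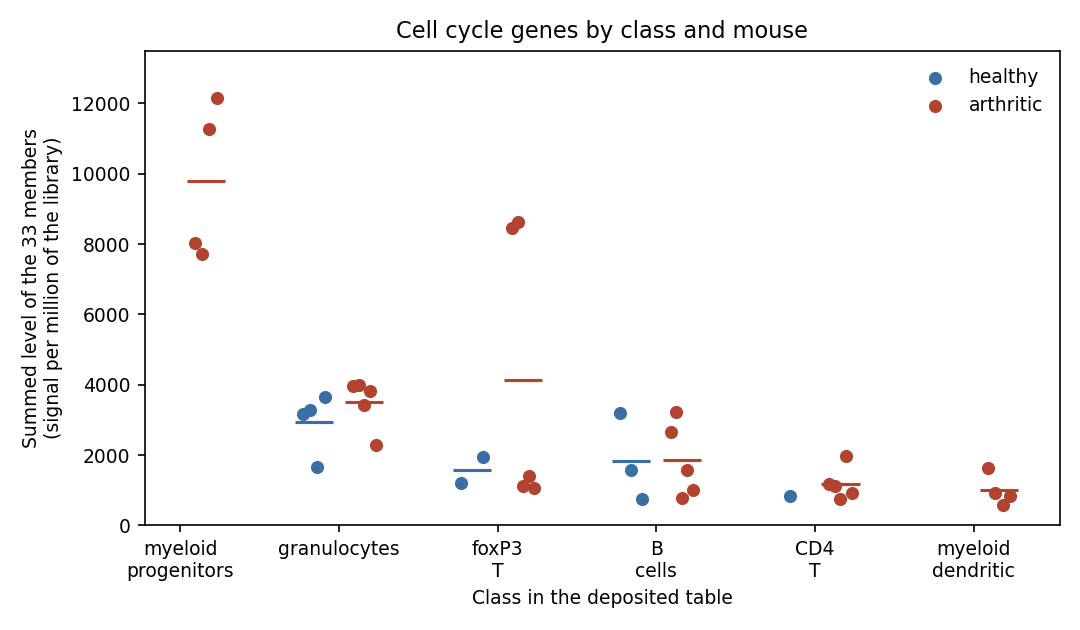
Summed level of the 33 genes (SPM, vertical axis) in each blood class, with 1 point per mouse of at least 5 columns, healthy in blue and arthritic in red, and lines at the means. Progenitors of arthritic mice lie at 7712 to 12160 SPM and their granulocytes at 2277 to 3979, and the foxP3 T class splits into 2 high and 3 low arthritic mice.

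Because they were numerous, granulocytes held 54.7% of the members' signal, in 48.8% of all signal. Progenitors held 20.0% of it in 7.44% of all signal and 4.48% of the columns. B cells held 17%, the foxP3 T class 4.31%, CD4 T cells 3.09% and myeloid dendritic cells 0.628%. Hmgb2, a chromatin protein, made up 19.6% of the members' signal and Mki67, the Ki-67 proliferation antigen, 19.4%. Without these 2 genes the arthritic means were 6102 ± 719 SPM in progenitors (SD, n = 4), 2074 ± 446 in granulocytes and 1105 ± 694 in B cells (SD, n = 5 each). The median progenitor column had signal for 29 of the 33 members, against 13 in granulocytes, 6 in B cells, 5 in CD4 T cells and 4 in both other classes. Progenitor columns were also the deeper ones, with a median total of 18742 against 12397 in granulocytes.

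Each class was then compared with the mean of the others over the arthritic mice, with mouse as a block. The classes are the authors', so these fits describe how the classes differ. All 33 members were higher in progenitors (limma, Benjamini-Hochberg adjusted p of 4.16e-07 to 0.00729), where 19.5% of the 12055 genes tested were called higher. The median log2 difference of the members was 2.66, against 0.15 for all genes. Ccna2, the cyclin of S and G2 phase, had 103.7, 72.07, 180.9 and 259.7 scaled SPM in progenitors of mice 1, 3, 4 and 5, with a log2 difference of 3.94 ± 0.63 (SE). Rrm2, the regulated subunit of ribonucleotide reductase, followed with 3.44 and Plk1, a kinase of mitotic entry, with 3.42. Cdk1 had 3.34, Ccnb1 3.29, both Aurka and Aurkb 3.27 and the thymidine kinase Tk1 3.24. The smallest log2 differences were 1.17 for Hmgb2, 1.54 for the tubulin-binding Stmn1 and 1.64 for Mcm2. All 13 erythroid markers were also higher in progenitors, with a median log2 difference of 4.60, and their part in the members' levels was not tested.

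In granulocytes 28 of 33 members were higher than in the other classes, where 24.5% of genes were called higher. These were all 22 mitotic members and 6 of the 11 replication members. Ccna2 led with a log2 difference of 2.82 ± 0.56 (SE), from 79.17, 76.3, 83.15, 126 and 27.54 scaled SPM in mice 1, 3, 4, 5 and 6. The ubiquitin-conjugating enzyme Ube2c had 2.75, Cdk1 2.59, Aurka 2.56, Aurkb 2.38, Rrm2 and the spindle motor Kif11 2.29 each, and the spindle checkpoint kinase Bub1b 2.22. The smallest differences were in replication genes: 0.46 ± 0.43 for Mcm2 (SE, limma adjusted p = 0.448), 0.53 ± 0.26 for Pcna (adjusted p = 0.125) and 0.66 ± 0.29 for Mcm5 (adjusted p = 0.0781). Scaled by the total alone, 13 members passed, and Mcm2, Pcna and Mcm5 turned to -0.277, -0.253 and -0.0991 (log2). That scaling moved the median of all genes from 0.42 to -0.31. All 13 erythroid markers were higher in granulocytes too, with a median log2 difference of 2.35.

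All 33 members were lower in myeloid dendritic cells, where 27.6% of genes were called lower. Their median log2 difference was -2.39, against -0.44 for all genes. Rrm1, the large subunit of ribonucleotide reductase, had 3.015, 0, 4.348 and 8.284 scaled SPM in dendritic cells of mice 1, 3, 4 and 6 and a log2 difference of -4.06 ± 0.43 (SE). Cdc20, the activator of anaphase, was listed at 0 in all 4 mice, and Ccna2 and Aurkb in 3 of 4. Fitted differences of members at or near 0 depend on the pseudocount, so their order is not firm. Cdc20 had -3.73, Ccna2 -4.06, Kif11 -3.37, Ube2c -3.36, Aurkb -3.29, the survivin gene Birc5 -3.16 and Tk1 -3.08. The smallest were -1.19 for Hmgb2, -1.52 for the kinetochore gene Cenpf and -1.57 for Mcm2.

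In CD4 T cells 23 members were lower, where 15.9% of genes were called lower. They were 18 of the 22 mitotic and 5 of the 11 replication members. Ccnb1 had 3.847, 0, 0, 0 and 2.302 scaled SPM in mice 1, 3, 4, 5 and 6, and Aurka and Plk1 were listed at 0 in 2 of the 5 mice, so the sizes of their differences depend on the pseudocount. The fitted log2 differences were -2.81 ± 0.63 (SE) for Ccnb1, -2.56 for Aurka and -2.46 for Plk1, followed by Rrm2 with -2.38 and Kif11 with -2.37. Ccnb2 (-2.35), Mki67 (-2.31) and the checkpoint kinase Bub1 (-2.11) came next.

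B cells and the foxP3 T class had few calls. In B cells 4 members were lower, against 3.04% of all genes: Ccna2 (-1.86), Cenpf (-1.60), Bub1b (-1.54) and Mki67 (-1.25). Leaving out mouse 4 or mouse 5 took this count to 0. In the foxP3 T class Mcm2 alone was higher, against 2.69% of all genes, by 1.31 ± 0.43 on the log2 scale (SE, adjusted p = 0.0417 by limma). It had 37.59, 23.4, 137.9, 215.6 and 54.19 scaled SPM in mice 1, 3, 4, 5 and 6, so the 3 mice with much hemoglobin in this class had the highest values. This call was lost without mouse 1, 5 or 6 and without identical columns. With identical columns left out, the calls were 33 in progenitors, 28 in granulocytes, 29 in dendritic cells, 20 in CD4 T cells and 3 in B cells. These counts were not set against the share of all genes called under that setting.

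Progenitors and granulocytes, the 2 classes with most of the members' signal, were compared directly, a comparison added after the class levels were seen. Of the 33 members 5 were lower in granulocytes, all of them replication genes, where 5.57% of all genes were called lower, and 0 of the 22 mitotic members passed. Mcm7, a helicase subunit, had 213.3, 200.7, 274 and 262.3 scaled SPM in progenitors of mice 1, 3, 4 and 5. In granulocytes of mice 1, 3, 4, 5 and 6 it had 81.13, 79.65, 103.4, 122.8 and 39.78. The fitted log2 change from progenitors to granulocytes was -1.47 ± 0.45 (SE, adjusted p = 0.015 by limma). The classes did not overlap for this gene. Without overlap, 11 of the 33 members were lower in granulocytes, 8 of the 11 replication members and 3 of the 22 mitotic ones (Ccnb1, Cdc20 and Plk1), against 10.2% of 9625 genes. Ccnb1 had a log2 difference of -1.35, which did not pass.

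The helicase subunit Mcm6 showed the same separation, with 173, 169.6, 168 and 236.6 scaled SPM in progenitors and 55.03, 55.55, 75.25, 104.5 and 34.54 in granulocytes. The corresponding log2 change was -1.36 ± 0.46 (SE, adjusted p = 0.0279 by limma). Rrm1 had -1.40 ± 0.52 (SE, adjusted p = 0.0489), Mcm3 -1.38 ± 0.50 (adjusted p = 0.0407) and Pcna -0.97 ± 0.35 (adjusted p = 0.0436), all by limma. The ranges of Pcna overlapped, with 197.2 to 380.6 scaled SPM in progenitors and 59.89 to 233.9 in granulocytes.

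Hmgb2 overlapped between both classes, with 863.7, 951, 1065 and 1869 scaled SPM in progenitors and 1300, 1476, 938.4, 1335 and 533.3 in granulocytes. Its log2 difference was 0.05 ± 0.31 (SE), and its sign turned to -0.18 when median-of-ratios factors were used and to -0.68 when libraries were scaled by their total. The spindle assembly factor Tpx2 had -0.06 ± 0.55 and Stmn1 -0.21 ± 0.55 (SE). The median log2 difference was -1.14 over the replication members and -0.54 over the mitotic members, against 0.15 for all genes, and the difference between both sets was not tested. Scaling by the total gave 12 lower members and a median of -0.52 for all genes. Leaving out 1 mouse gave 1 to 4, with 1 without mouse 4, 2 without mouse 1 or 6 and 3 without mouse 3.

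**Figure D2:**
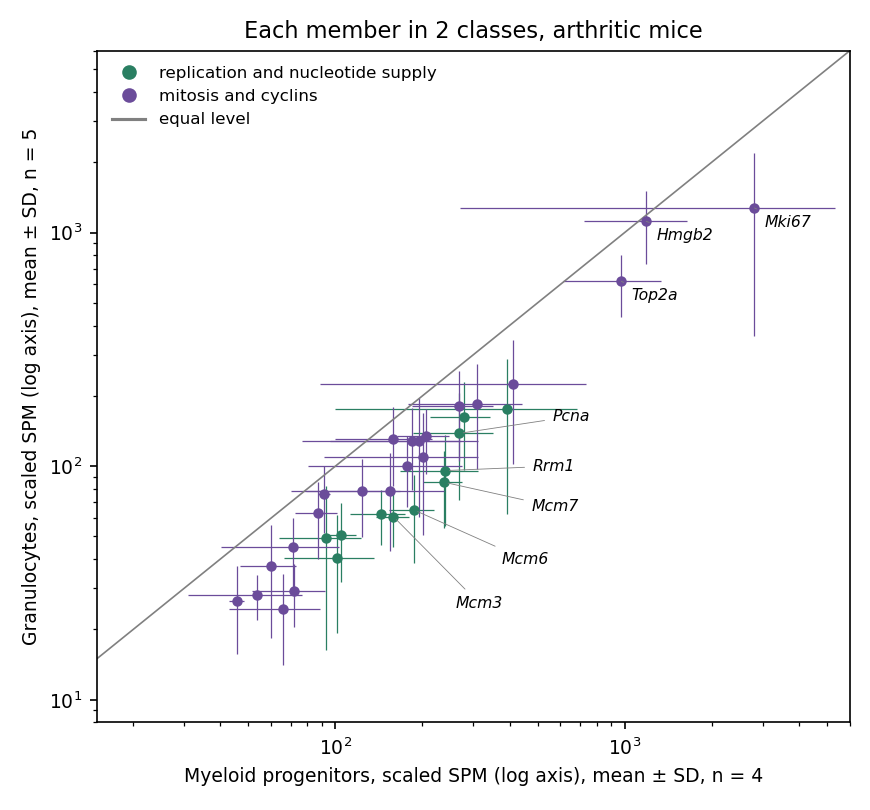
Mean scaled SPM of each of the 33 genes in progenitors (n = 4 mice, horizontal log axis) and granulocytes (n = 5 mice, vertical log axis) of arthritic mice, with SD bars, replication members in green, mitotic members in purple and a line of equal level. All points lie below the line, Hmgb2 nearest to it (1187 against 1117), and the 5 labelled replication members passed the test.

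The bases upstream of the starts show which known promoter elements the members hold. Of the 33 genes 28 matched the RefSeq promoter table (GRCm38.p6), with 29 promoters of 300 bases, 250 before and 50 after the start; Mcm4, Ccna2, Aurkb, Tpx2 and Stmn1 did not match. The elements were searched on both strands: the CCAAT box (CCAAT), the cell cycle homology region or CHR (TTTGAA or TTCGAA), known from mitotic promoters, and an E2F site (TTTGGCGC, TTTCGCGC, TTTCCCGC or TTTGCCGC). The CCAAT box was in 26 of 29 member promoters (89.7%), against 37.4% of all 32851 promoters. The CHR was in 15 of the 18 mitotic promoters (83.3%) and 2 of the 11 replication promoters (18.2%), against 19.2% of all. The E2F site was in 4 of 11 replication promoters (36.4%) and 1 of 18 mitotic promoters (5.56%), against 2.26% of all. A match is a description and not a shown site, and matches of different elements overlapped in 2 of the 29 promoters.

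The 120 bases before the start follow for 3 replication members that were lower in granulocytes than in progenitors and for 3 mitotic members. No mitotic member passed in that comparison. Cdc20 was still lower in granulocytes without overlap, with 9.181 to 38.23 scaled SPM against 43.1 to 48.86 in progenitors. Each stretch is written in the direction of the gene, with the matches in capitals. ATTGG and GCGCGAAA are matches on the other strand, and in Mcm6 the first pair of E2F matches overlaps.
Mcm3 (chr1:20820313-20820432, minus strand): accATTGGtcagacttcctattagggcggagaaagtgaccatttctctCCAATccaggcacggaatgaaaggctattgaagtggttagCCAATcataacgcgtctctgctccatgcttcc
Mcm6 (chr1:128359706-128359825, minus strand): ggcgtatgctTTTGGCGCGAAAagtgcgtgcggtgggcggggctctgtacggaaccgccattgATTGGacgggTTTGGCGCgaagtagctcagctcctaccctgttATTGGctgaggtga
Rrm1 (chr7:102441575-102441694, plus strand): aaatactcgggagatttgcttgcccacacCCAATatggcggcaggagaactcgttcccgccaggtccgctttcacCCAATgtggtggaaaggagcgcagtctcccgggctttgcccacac
Cdc20 (chr4:118437344-118437463, minus strand): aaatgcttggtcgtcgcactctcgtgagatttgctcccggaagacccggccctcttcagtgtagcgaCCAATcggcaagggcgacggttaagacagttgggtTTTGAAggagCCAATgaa
Cdk1 (chr10:69352913-69353032, minus strand): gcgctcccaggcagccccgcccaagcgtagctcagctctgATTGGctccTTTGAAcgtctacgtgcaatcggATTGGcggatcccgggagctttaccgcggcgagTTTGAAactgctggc
Hmgb2 (chr8:57511723-57511842, plus strand): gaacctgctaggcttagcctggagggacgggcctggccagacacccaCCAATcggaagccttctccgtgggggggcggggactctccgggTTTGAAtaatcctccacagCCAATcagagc
Cdc20, Cdk1 and Hmgb2 each hold CCAAT boxes and a CHR in this stretch. Mcm3 and Rrm1 hold CCAAT boxes without a CHR there, and Mcm6 holds CCAAT boxes and E2F sites. Outside the stretch but within the searched promoters, Mcm3 had E2F matches from positions 20 and 39 after the start. Cdk1 had an E2F match from position 131 before the start.

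The members' signal was unevenly spread over columns. The 431 columns richest in them (10% of 4310, each at 7240 SPM or more) held 40.0% of the members' signal in 13.4% of all signal. By class, 114 of the 193 progenitor columns (59.1%) were among them, 189 of 1905 granulocyte columns (9.92%), 98 of 1301 B cell columns (7.53%) and 24 of 331 foxP3 T columns (7.25%). CD4 T cells gave 1 of 450 and myeloid dendritic cells 0 of 122. All 5 columns of the mast cell class were among them, but these hold only 2 distinct columns. By mouse, the share was 13.2%, 13.7%, 7.35%, 16.9% and 2.14% of the columns of arthritic mice 1, 3, 4, 5 and 6, and 8 of 302 columns of the healthy mice (2.65%). Of the 431 columns 26.5% were identical to a joint column, against 15.2% of the rest.

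The member-rich columns differed from the rest of their class in marker levels, given here as pooled values with no test. Member-rich B cell columns had 1333 SPM of plasma cell markers against 5727 in the rest. Member-rich granulocyte columns had 3255 SPM of neutrophil precursor markers against 1909, 558.6 SPM of mature neutrophil markers against 1413, and 27020 SPM of secondary granule markers against 38470. In progenitors hemoglobin took 16.2% of member-rich columns against 2.81%, and neutrophil precursor markers had 341 SPM against 6377. Member-rich foxP3 T columns had 0.037% hemoglobin against 41.4%, with 1494 SPM of T cell markers against 650.7 and 700 SPM of NK markers against 210.6.

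**Figure D3:**
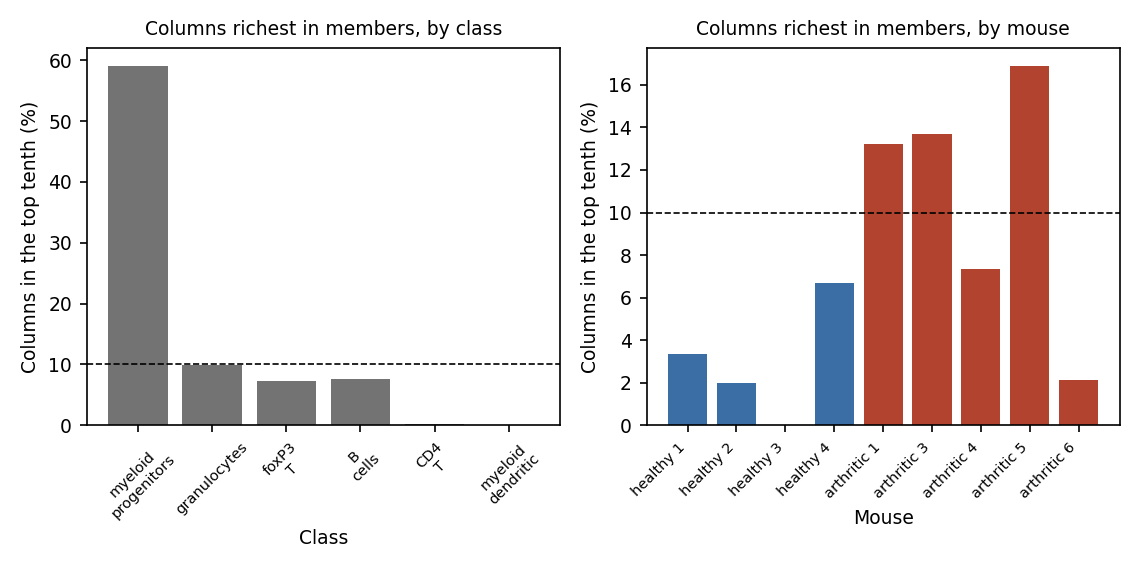
Share (%) of the columns of each class (left) and of each mouse (right, healthy in blue and arthritic in red) that are among the 431 columns richest in the 33 genes, with a dashed line at 10%. Progenitors stand at 59.1% and granulocytes at 9.92%, and among arthritic mice the share runs from 2.14% in mouse 6 to 16.9% in mouse 5.

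Over all cells, no member passed the test between arthritic and healthy mice. The 33 genes summed to 2879, 1362, 1375 and 2733 SPM in healthy mice 1 to 4, a mean of 2087 ± 832 (SD, n = 4). Arthritic mice 1, 3, 4, 5 and 6 had 4035, 3721, 2807, 4213 and 1376 SPM, a mean of 3230 ± 1170 (SD, n = 5). The groups overlapped through mice 4 and 6. Replication members had 460.4 ± 122 SPM in healthy and 643.9 ± 211 in arthritic mice, and mitotic members 1627 ± 713 and 2587 ± 967 (SD, n = 4 and 5).

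By limma 0 of 33 members passed, against 0.0473% of 8459 genes tested, with adjusted p of 0.339 to 0.899. At an unadjusted p under 0.05 there were 3 members (9.09%), against 13.4% of all genes: Plk1 (1.45 ± 0.57, SE, adjusted p = 0.339), the centromere complex gene Cdca8 (1.39 ± 0.56, adjusted p = 0.343) and the helicase gene Mcm5 (0.84 ± 0.34, adjusted p = 0.35). The log2 difference was above 0 in 32 members, as in 69.3% of all genes, and its median was 0.66 against 0.26. No member had groups that did not overlap, against 3.64% of all genes higher in arthritic mice. Secondary granule markers summed to 1059 to 1860 SPM in healthy and 3217 to 33770 in arthritic mice, and neutrophil precursor markers to 46.74 to 615.4 and 157 to 2554. The part of these cells in the members' levels was not tested over all cells.

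The 8 members with the highest mean level showed this overlap 1 by 1. Mki67 had 469.6, 166.2, 366.5 and 894.6 scaled SPM in healthy mice 1 to 4, and 476.3, 380.9, 779.8, 2346 and 155.4 in arthritic mice 1, 3, 4, 5 and 6. Its log2 difference was 0.47 ± 0.69 (SE), and its lowest and its highest value were both in arthritic mice. Hmgb2 had 439.1, 239.7, 353.9 and 533.2 in healthy and 665.1, 657.4, 527.8, 1065 and 255.5 in arthritic mice, a log2 difference of 0.61 ± 0.37 (SE). Arthritic mouse 6 lay below 3 of the 4 healthy mice.

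Top2a, the topoisomerase that untangles sister chromatids, had 178.5, 109.3, 172.7 and 345.8 scaled SPM in healthy and 375.6, 310.4, 333.3, 661.4 and 114.7 in arthritic mice, a log2 difference of 0.75 ± 0.46 (SE). The kinetochore motor Cenpe had 61.05, 35.01, 71.62 and 138.3 against 112, 88.93, 107.2, 256.9 and 32.39. Cenpf had 77.49, 27.7, 92.68 and 149.5 against 98.23, 78.89, 128.7, 347.7 and 31.77. In these genes mouse 5 was again the highest arthritic mouse and mouse 6 the lowest. Pcna had 79.84, 62.32, 67.4 and 149.5 scaled SPM in healthy and 89.31, 93.45, 96.97, 192.5 and 55.69 in arthritic mice. Rrm2 had 35.22, 13.85, 50.55 and 120.5 against 75.86, 65, 106.2, 296.1 and 15.27. Tyms, the thymidylate synthase, had 72.79, 36.16, 21.06 and 60.24 against 114.7, 89.05, 72.63, 179.5 and 25.51, which differed by 0.90 ± 0.52 on the log2 scale (SE, adjusted p = 0.427 by limma).

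The log2 differences ran from -0.34 ± 0.76 for Mcm2 to 1.82 ± 1.02 for Ccna2 (SE), which had 0.71 without healthy mouse 3 and 1.21 with a pseudocount of 5 SPM. Ccna2 and Tk1 were listed at 0 in healthy mouse 3, which had 26 columns. Mcm2 had 42.27, 7.309, 147.4 and 60.24 scaled SPM in healthy mice 1 to 4 and 25.35, 21.79, 61.61, 81.4 and 12.97 in arthritic mice 1, 3, 4, 5 and 6. Its highest values were those of healthy mice 3 and 4 and arthritic mice 4 and 5, where hemoglobin took 55.0%, 41.5%, 33.8% and 50.0% of the signal. Its sign turned to 0.27 without healthy mouse 3.

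**Figure D4:**
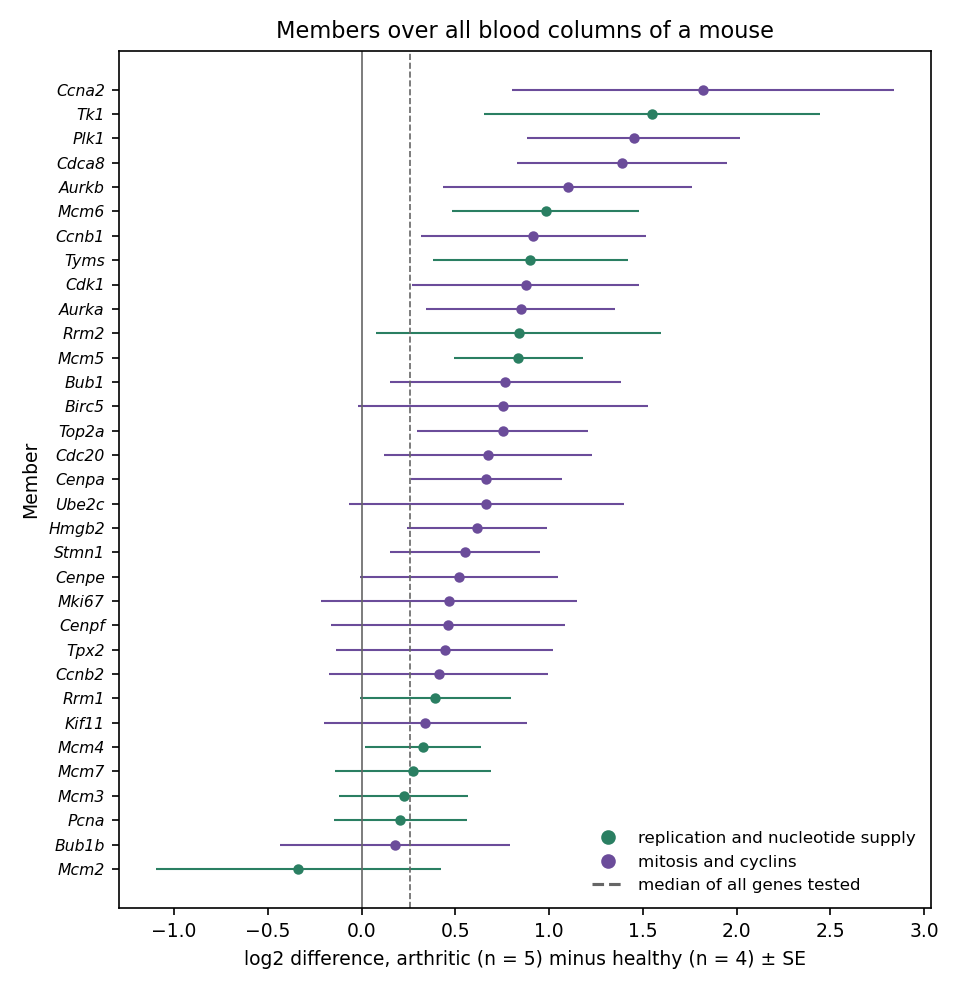
Log2 difference between arthritic (n = 5) and healthy (n = 4) mice of each of the 33 genes over all cells, with SE bars, replication members in green, mitotic members in purple and a dashed line at the median of all genes tested (0.26). The values run from -0.34 (Mcm2) to 1.82 (Ccna2), 32 of 33 lie above 0, and none passed the adjusted test.

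Within granulocytes 0 of 33 members passed by limma, against 0.655% of 7935 genes. The members summed to 3178, 3284, 1658 and 3646 SPM in healthy granulocytes and 3972, 3979, 3429, 3815 and 2277 in arthritic ones. At an unadjusted p under 0.05 there were 7 members (21.2%), against 21.6% of all genes. Plk1 was listed at 0 in healthy mice 1, 2 and 3 and had 19.94 scaled SPM in mouse 4, against 24.36, 22.25, 16.8, 22.33 and 10.24 in arthritic mice (adjusted p = 0.115). The centrosome kinase Aurka had 11.03, 0, 0 and 19.94 in healthy and 34.86, 34.14, 20.51, 41.05 and 17.55 in arthritic mice (adjusted p = 0.136). The other 5 were Mcm5, Mcm6, Cdca8, Stmn1 and the centromeric histone gene Cenpa, with adjusted p of 0.176 to 0.23. Healthy mice had 13, 5, 11 and 20 granulocyte columns, so a listed 0 there rests on few columns. Columns shared with another mouse or the joint left out, 1 member was called, and without healthy mouse 4, 2. In both cases the number of all genes called rose as well, so these calls do not set the members apart.

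In B cells 3 healthy and 5 arthritic mice were compared, since healthy mouse 3 had 1 B cell column. Healthy mouse 1 and arthritic mouse 5 had 9 each. By limma 0 of 30 tested members passed, against 0% of 9585 genes. At an unadjusted p under 0.05 there were 0 members and 677 genes. Ccna2, Plk1 and Bub1b fell below the filter. The log2 difference was above 0 in 13 of the 30, with a median of -0.18 against 0.56 for all genes. That median was -0.30 to 0.08 under the other settings and -0.588 to 0.495 with 1 mouse left out. The difference between granulocytes and B cells was tested directly in the same mice. In that test 0 of 33 members passed, against 0% of 10939 genes, with a smallest adjusted p of 0.467 by limma. At an unadjusted p under 0.05 there were 0 members and 1205 genes.

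Granulocyte columns of each arthritic mouse were then divided at the mouse's median of secondary granule transcripts, which maturing neutrophil precursors make. Granule-poor and granule-rich are thus relative to each mouse. Secondary granule markers had 34390, 34410, 1749, 5047 and 518.4 SPM in poor columns of mice 1, 3, 4, 5 and 6. In rich columns they had 102800, 101700, 36740, 25880 and 18030 SPM. The poor columns of mice 1 and 3 were therefore above the rich columns of mice 5 and 6. Of the members 6 were higher in granule-rich columns, where 10.4% of 7447 genes were called higher, and all 6 were mitotic. Cdc20 had 13.09, 9.856, 9.123, 15.02 and 1.142 scaled SPM in granule-poor columns of mice 1, 3, 4, 5 and 6 and 30.73, 33.36, 21.88, 32.74 and 10.08 in granule-rich columns. It was higher in the rich columns of each mouse, by 1.49 ± 0.28 on the log2 scale (SE, adjusted p = 0.00631 by limma). Plk1 had 1.14, Cdk1 0.97, Cdca8 0.93, Ccnb2 0.86 and Hmgb2 0.79.

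None of the 11 replication members passed in the granule split. The smallest differences were -0.05 ± 0.25 for Mcm4, -0.09 ± 0.25 for Mcm2 and 0.14 ± 0.23 for Mcm6 (SE). This split depended on scaling: by the total alone 0 members passed, and the median of all genes moved from 0.04 to -0.36. Leaving out 1 mouse gave 1 member without mouse 1 or 4, 2 without mouse 3 and 12 without mouse 5, counts not set against all genes called in the same fits. In SPM, mitotic members had 3482, 3518, 2380, 3420 and 834.7 in granule-poor and 3140, 3125, 3159, 2932 and 2814 in granule-rich columns, higher in the rich columns of mice 4 and 6 only. Replication members had 817.4, 845.5, 533.3, 679 and 186.2 against 505.7, 452.1, 696.6, 629.8 and 505.4, also higher in mice 4 and 6 only.

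**Figure D5:**
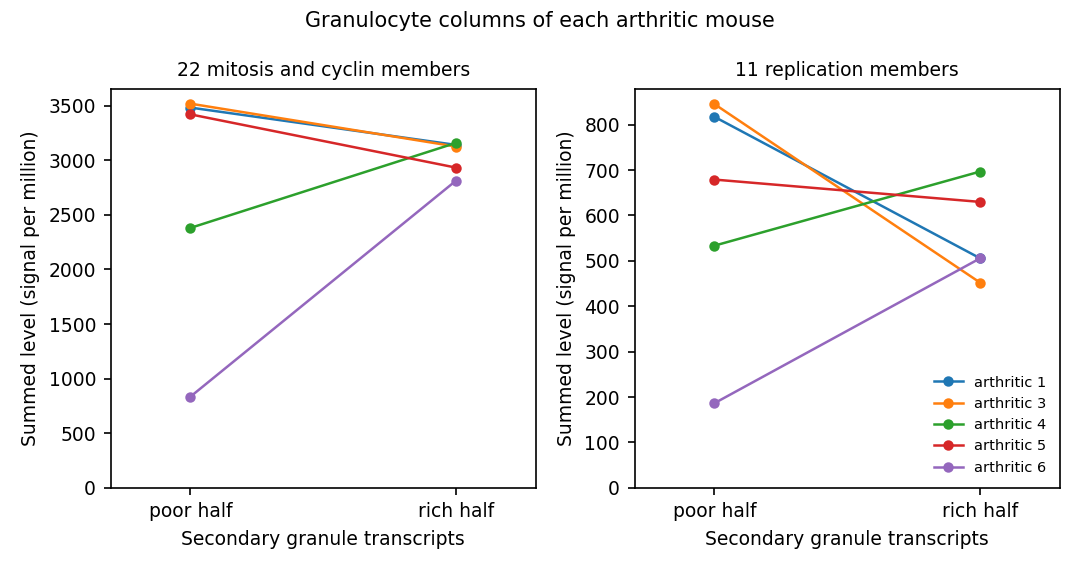
Summed level of the replication and the mitotic members (SPM) in granule-poor and granule-rich granulocyte columns of each arthritic mouse, with a line joining the values of a mouse. Poor and rich are relative to each mouse's own median. Both sets are higher in the rich columns of mice 4 and 6 and lower in those of mice 1, 3 and 5.

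B cell columns divided at the median of plasma cell transcripts gave 0 of 30 members by limma, against 0.12% of 9143 genes, and 7 of 30 (23.3%) at an unadjusted p under 0.05, against 9.9% of all genes. The members summed to 2333, 2231, 894.6 and 915.1 SPM in plasma-poor and 2942, 4216, 702.3 and 1104 in plasma-rich columns of mice 1, 3, 4 and 6. They were thus higher in 3 of 4 mice, and 6 members were called without mouse 4, a count not set against all genes called in that fit.

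Progenitor columns divided at the median of erythroid transcripts, a comparison added after seeing the data, gave 0 of 33 members by limma, against 0.093% of 8600 genes, with a smallest adjusted p of 0.0559. At an unadjusted p under 0.05 there were 15 members (45.5%), against 13.5% of all genes. The members summed to 6489, 6424, 10330 and 11650 SPM in erythroid-poor and 9798, 9830, 12670 and 12770 in erythroid-rich columns of mice 1, 3, 4 and 5. They were higher in 4 of 4 mice. The mitotic members were higher in 4 of 4 and the replication members in 2 of 4. Replication members had 1797, 1751, 2603 and 2752 SPM in the poor and 2556, 2777, 2265 and 1475 in the rich columns. Mki67 had 618.6, 533.9, 1910 and 3598 scaled SPM in the poor and 1596, 1591, 5650 and 11350 in the rich columns. In scaled SPM, 19 members (57.6%) were higher in the rich columns of each mouse, against 10.7% of all genes. This split depended on scaling: by the total alone the members' median log2 difference moved from 0.55 to 0.10, and that of all genes from -0.42 to -0.82. Neutrophil precursor markers had 7926, 3717, 2350 and 886.2 SPM in the poor and 408.4, 161.4, 1026 and 113.8 in the rich columns, lower in the rich columns of each mouse. Erythroid markers had 10970, 8781, 100800 and 282100 SPM in the poor and 57520, 93360, 444100 and 609200 in the rich columns. The poor columns of mouse 5 were thus above the rich columns of mice 1 and 3.

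Other genes of the cycle were counted from lists chosen by function. In progenitors 23 of 25 other replication genes, 38 of 39 other mitosis genes and 8 of 8 tested replication histones were higher, and of 24 G1 regulators and brakes 13 were higher and 7 lower, against 19.5% of all genes higher and 16.9% lower. In granulocytes 12 of 25, 36 of 39 and 8 of 8 were higher, with 14 G1 genes higher and 1 lower, against 24.5% and 5.38% of all genes. Replication histone messages lack polyA tails in dividing cells, so their levels here are uncertain. In CD4 T cells 13, 30 and 7 were lower, with 5 G1 genes higher and 9 lower, against 14.5% of all genes higher and 15.9% lower. In myeloid dendritic cells 20, 32 and 6 were lower, with 4 G1 genes higher and 12 lower, against 6.12% and 27.6%. Compared with progenitors, 3 of 25 other replication genes and 0 of 39 other mitosis genes were lower in granulocytes, against 5.57% of all genes. Of 8 tested replication histones 1 was lower, and of 24 G1 genes 6 were higher and 4 lower. In that fit 2228 of 12055 genes were called higher. Between arthritic and healthy mice over all cells 0 passed in each of the 4 lists, with 22, 33, 22 and 8 genes tested. Of all genes 0.0473% passed there.

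In the joint table the order of the classes was similar, described here without a test. The 33 members summed to 10380 SPM in progenitors (1498 columns), 5053 in granulocytes (6487 columns), 3350 in the foxP3 T class, 3308 in B cells, 2134 in the osteoblast class (53 columns), 1285 in CD4 T cells (28 columns) and 646.7 in the macrophage class (66 columns). All 33 members were highest in progenitors, as were 33 of 33 in blood pooled over mice. By mean scaled SPM over arthritic mice, 32 were highest in blood progenitors. The exception was Mcm2, with 93.73 in the foxP3 T class against 93.11 in progenitors. Pooled over healthy and arthritic mice, blood had 8765 SPM in progenitors, 3649 in granulocytes and 2206 in B cells. In granulocytes 33 of 33 members were higher in the joint, against 54.4% of genes at 10 SPM or more, and none by over 2-fold, against 0.445%. In progenitors 22 of 33 were higher, against 37.9%. Of the joint columns 12.1% in progenitors, 14.9% in granulocytes and 46.0% in B cells were identical to a blood column. Without these the sums were 10190, 5131 and 4598 SPM. Of the 8374 joint columns used, 3825 were identical to another joint column. The joint column counts are thus not counts of separate cells.

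In the macrophage class 10 members were listed at 0: Mcm2, Rrm1, Tk1, Cdk1, Ccna2, Ccnb1, Aurka, Aurkb, Plk1 and Kif11. In the osteoblast class 4 were, Mcm2, Mcm7, Plk1 and Bub1b, and in CD4 T cells 2, Cdk1 and Aurkb.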

How the data were processed

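The authors deposited 1 blood and 1 joint table of signal per gene and column, whole numbers whose columns are partly identical to each other. Per the labels' protocols, libraries were made with Seq-Well and processed after the Drop-seq core protocol, and per the submitters' processing notes the build was GRCm38.p5. No aligner is named in those notes or labels. The signal was summed per mouse, or per mouse and class (at least 5 columns; 10 for the splits), and divided by the library total. Differences were tested with limma 3.58.1 (R 4.3.3) with a mean-variance trend on log2(scaled SPM + 1), after trimmed-mean scaling (30% and 5% trims), for genes at 10 SPM or more in as many libraries as the smaller group has. The granulocyte minus B cell difference was fitted without that trend, on the log2 level of granulocytes minus that of B cells in each mouse. Adjusted p-values (Benjamini-Hochberg, threshold 0.05) are over all genes tested. Count models were planned for plain counts of separate cells and were not used, since columns were shared. The procedure was tested on simulated sums of healthy and arthritic mice, drawn independently, without shared columns and without mouse as a block. That simulation cannot show how p-values behave with shared columns or in the class and column comparisons. Alternatives covered scaling, pseudocount, filter, shared columns, each mouse left out and a replicate block.

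Members, roles, gene lists and tests were chosen with earlier results of these data known. Named are members past the threshold, the 8 with the highest mean level, up to 8 per direction and up to 3 with the smallest difference in class and column comparisons, and members without signal. Members at an unadjusted p under 0.05 and the extremes of a range were named after their values were seen. Of the joint columns 49, in sets of under 20, were not used. Intervals of counting error were not computed, since identical columns are not separate molecules. Between arthritic and healthy mice, p-values measure the spread between mice, and with 4 healthy mice of few columns that spread includes sampling noise. In the class and column comparisons mouse was a block. There p-values rest on how far the differences between classes or column sets varied from mouse to mouse. The mice also share columns, since 734 blood columns were identical to one of another mouse. The mice are thus not fully independent, and p-values may be too small.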

Additional observations from a re-analysis of the deposited data

Results flagged for a closer look

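Of 25 groups checked for a mouse far from the others, 1 was set apart. Mki67 over all cells had 2346 scaled SPM in arthritic mouse 5, against 155.4 to 779.8 in the other 4 arthritic mice, and the gap to the nearest was 0.715 of the group's range. Chance sets apart about 1 in 20 such groups. Hemoglobin took 50.0% of the signal of this mouse.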

How the results depend on the processing

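Apart from leaving out mice, these settings moved a count of members called by over 1.5 times. In granulocytes between arthritic and healthy mice, 1 was called without a filter and 1 without columns shared with another mouse or the joint (0 as reported). Under both settings the number of all genes called rose as well. Against the other classes, granulocytes had 13 by total scaling (28 as reported). B cells had 7 with median-of-ratios factors, 2 and 8 with pseudocounts of 0.5 and 5, 2 without a filter, 0 with at least 20 columns and 1 without shared columns (4 as reported). The foxP3 T class had 0 by total scaling, with a pseudocount of 0.5, without a filter and without identical or shared columns (1 as reported). The granule split had 0 by total scaling and 3 without a filter (6 as reported). Granulocytes against progenitors had 12 by total scaling, 2 with a pseudocount of 0.5, 2 without a filter, 3 without identical columns, 8 with at least 20 columns and 2 without shared columns (5 as reported). The erythroid split had 2 with median-of-ratios factors, with a pseudocount of 5, without a filter or without identical columns, and 3 with the outer columns of each mouse compared and the middle ones left out. The granulocyte minus B cell difference had 2 with array weights. The cause of these changes was not tested.

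With 1 mouse left out in turn, calls ranged over 0 to 0 (all cells), 0 to 2 (granulocytes), 0 to 0 (B cells) and 0 to 1 (their difference). By class they were 22 to 27 in granulocytes, 0 to 6 in B cells, 17 to 21 in CD4 T cells, 0 to 1 in the foxP3 T class, 32 to 33 in progenitors and 26 to 33 in dendritic cells. They were 0 to 6 in the plasma split, 1 to 12 in the granule split, 0 to 1 in the erythroid split and 1 to 4 for granulocytes against progenitors. Median log2 differences ranged over 0.359 to 1.08, 0.705 to 1.21 and -0.588 to 0.495.

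Of the named log2 differences 12 changed sign, in 24 values. Over all cells these were Mcm2 (-1.16 to 0.266 with 1 mouse left out, the last without healthy 3), Mki67 (-0.0406 with the replicate block, -0.0545 to 0.903 with 1 mouse left out, the first without arthritic 5), Pcna (-0.0383 to 0.48, the first without arthritic 5) and Cenpf (-0.0354 with the block, -0.0383 to 0.854, the first without healthy 2). In granulocytes by total scaling they were Mcm2 (-0.277), Mcm5 (-0.0991) and Pcna (-0.253). In the granule split they were Mcm2 (-0.31 to 0.0939, the last without mouse 5), Mcm4 (0.0182 without identical columns, 0.388 with the middle columns left out, -0.249 to 0.12 with 1 mouse left out) and Mcm6 (-0.257 by total scaling, -0.0558 to 0.304, the first without mouse 4). Between granulocytes and progenitors they were Hmgb2 (-0.183 with median-of-ratios factors, -0.677 by total scaling, -0.0184 without identical columns, -0.253 to 0.231 with 1 mouse left out) and Tpx2 (-0.344 to 0.069). The other named values gave 1128 with the same call, 105 that lost it and 5 that gained it.

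With the mouse number as a replicate block, the median log2 difference was 0.492 over all cells, 0.815 in granulocytes and -0.0542 in B cells, with 0 members called in each, while genes called over all cells went from 4 to 35. Deviations of same-numbered mice correlated at -0.00405, -0.287 and 0.301, so the numbers were not taken to pair the mice. At least 20 columns could not be run for granulocytes, B cells and their difference between arthritic and healthy mice, nor leaving out identical or shared columns for that difference. The few healthy columns limit what could be detected.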

Other observations

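With hemoglobin genes left out of the totals, 3 of 33 members (9.09%) had their 4 highest levels in the 4 mice richest in hemoglobin, against 401 of 9609 genes (4.17%). They were Mcm2, Bub1b and Cenpf, and the order was looked at after the Mcm2 values had been seen. Mcm2 had 64.69, 9.408, 235 and 82.3 SPM of non-hemoglobin signal in healthy mice 1 to 4, and 31.67, 29.1, 81.39, 90.68 and 18.26 in arthritic mice 1, 3, 4, 5 and 6.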
